A study of Mus musculus with 36 samples.

Results

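Myostatin, insulin-like growth factor 1 (IGF1) and the secreted factors of muscle known as myokines were followed in mouse gastrocnemius, the large calf muscle, through the rows Mstn, Acvr2b, Fst, Fstl1, Igf1, Igf1r, Igfbp5, Fndc5, Il15 and Metrnl of an expression table. These are 10 of its 24319 gene symbols. The genes were chosen by name, with earlier results of these data known, and all 10 were above 0 in every library. Polyadenylated RNA was sequenced from WT mice and from Bmal1hep-/- mice, in which the core clock gene Bmal1 is deleted in the liver, with gastrocnemius taken at zeitgeber times (ZT) 0, 4, 8, 12, 16 and 20 h. There were 3 biological replicates in each of the 12 groups, 36 libraries in all, and p-values measure the spread between these samples. The deletion was made in another organ, so that Bmal1 RNA in muscle cannot check the genotype labels. The labels used here give neither the age, the sex, nor the promoter that drove the recombinase, nor whether WT mice carried unrecombined alleles.

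Myostatin, encoded by Mstn, is a ligand of the TGF-beta family that muscle secretes and that restrains muscle growth. It binds the activin receptor ACVR2B and signals through SMAD2 and SMAD3, while follistatin, encoded by Fst, binds the ligand and blocks it. IGF1 acts the other way: through its receptor IGF1R it drives AKT and protein synthesis, and binding proteins such as IGFBP5 hold IGFs in the tissue and modulate their access to the receptor. Myokines are factors that muscle releases to act locally or on other organs. FNDC5 is the precursor of irisin, IL15 is a cytokine that supports lymphocytes, meteorin-like (Metrnl) is a secreted factor described in exercise and cold exposure, and FSTL1 is a secreted glycoprotein with a follistatin-like domain. BMAL1 binds DNA with CLOCK at E-boxes, and many genes of muscle oscillate over the day.

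Upstream sequences are shown for the ligand Mstn, since its window held the letters TATAAA, and for Igfbp5, since its daily rhythm carried the lowest p-value among the members. Both are RefSeq sequences of the build GRCm38.p6, 250 bases that end just before the annotated start, 5′ to 3′ on the gene's strand, with TATAAA in capitals where present. The Mstn window is chr1:53061390-53061639 on the plus strand and the Igfbp5 window is chr1:72874866-72875115 on the minus strand.
Mstn: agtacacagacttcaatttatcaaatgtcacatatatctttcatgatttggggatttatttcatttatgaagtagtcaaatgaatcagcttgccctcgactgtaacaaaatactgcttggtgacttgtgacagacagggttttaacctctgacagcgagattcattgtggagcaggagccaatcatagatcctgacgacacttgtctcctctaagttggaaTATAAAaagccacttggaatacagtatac
Igfbp5: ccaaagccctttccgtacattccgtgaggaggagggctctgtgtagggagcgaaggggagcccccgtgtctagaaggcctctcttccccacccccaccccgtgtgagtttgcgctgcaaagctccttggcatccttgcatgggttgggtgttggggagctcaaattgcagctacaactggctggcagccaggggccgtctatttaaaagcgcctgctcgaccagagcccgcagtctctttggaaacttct
RefSeq promoter windows of 300 bases, the last 50 of them after the start, were matched for 8 of the 10 members, all except Fst and Il15. Motifs were searched on both strands. None of the 8 windows held the E-box CACGTG, which 7.15% of 32851 promoters held, nor the D-box TTATGNAA, held by 3.38%. The same was true of AGAACA, a single arm of the glucocorticoid receptor site, held by 18.97%, of the palindromic site of both arms, held by 0.00913%, and of the SMAD box GTCTAGAC, held by 0.213%. TATAAA, a motif chosen after the sequences were seen, was held by 13.6% of promoters and by the Mstn window alone among these 8, starting at position -29 relative to the annotated start. These matches describe the letters of the windows only.

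Values are FPKM, fragment counts scaled to transcript length and library size, so that levels of different genes can be compared. Igfbp5 was the most abundant member, with a median over the 36 libraries of 136.4 FPKM and a range of 87.9 to 204. Mstn had a median of 42.8 FPKM (24.8 to 59.0) and Fndc5 one of 33.3 FPKM (22.9 to 47.2), and these ranges overlapped each other but not that of Igfbp5. Fstl1 followed at 15.8 FPKM (8.98 to 26.2). Below these stood Il15 at 4.80 FPKM (3.00 to 6.95), Igf1 at 4.64 FPKM (2.82 to 9.15) and Acvr2b at 3.33 FPKM (1.83 to 5.28), with overlapping ranges. The lowest medians were 2.24 FPKM for Metrnl (1.25 to 3.50), 1.89 for the receptor Igf1r (1.31 to 2.41) and 1.68 for Fst (0.560 to 3.22). The binding protein RNA was thus far above that of its ligand, and the ligand Mstn far above its receptor and its antagonist, within every library.

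**Figure D1:**
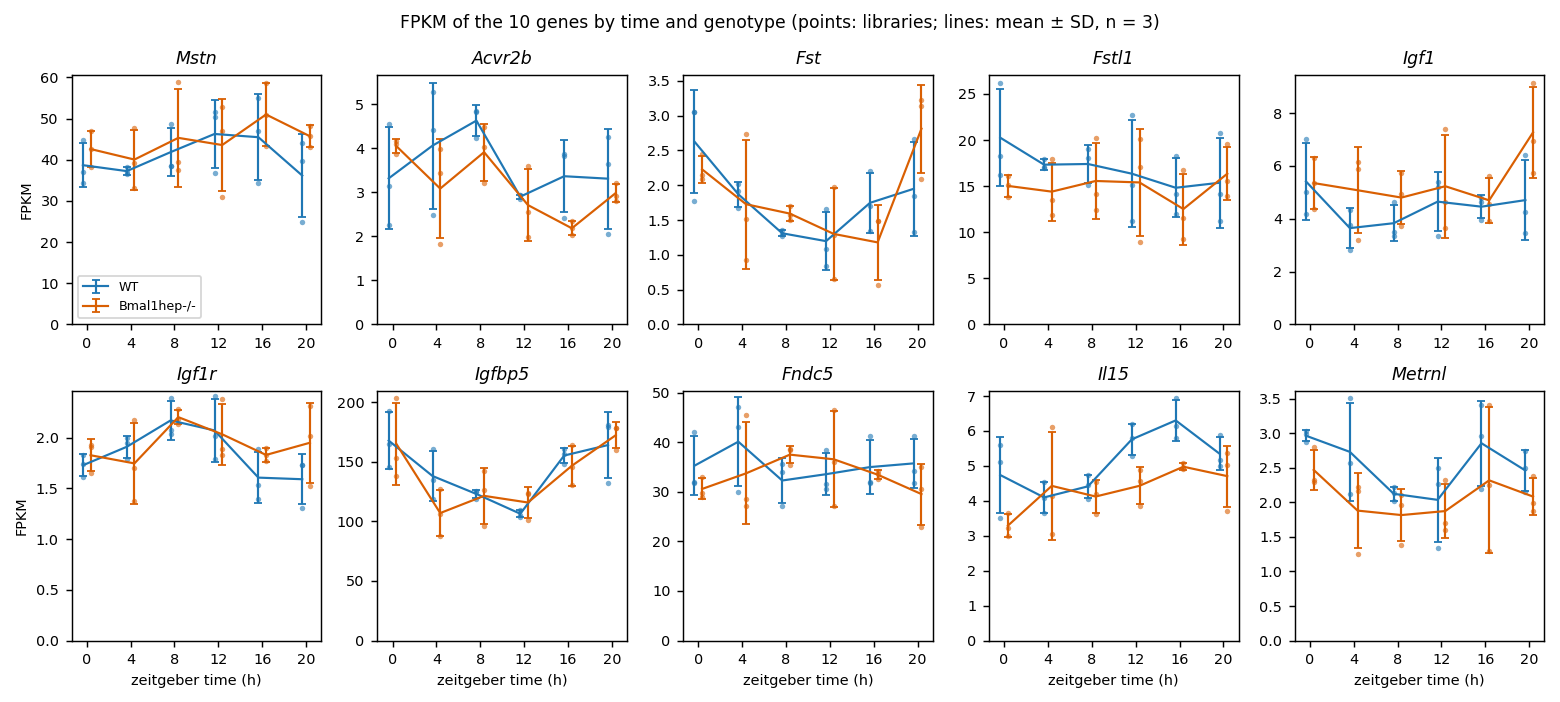
FPKM of the 10 genes (y axis, from 0) against zeitgeber time in hours (x axis) in WT (blue) and Bmal1hep-/- (orange), with 1 point per library and lines through the group mean ± SD (n = 3). Igfbp5 and Fst are low around ZT12 in both genotypes, while Il15 is high at ZT12 to ZT20 in WT.

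The tissue carried the RNA of muscle fibres, and some libraries stood apart. Ckm, Tnnt3, Myl1 and Actn3, which encode fibre proteins, were at 3053 FPKM or more in every library, while the myosin gene Myh4 was listed at 0 in 34 libraries and Acta1 in 1, where an exact 0 can be a failed estimate. Depth, inferred from the value of single reads, ran from 58.0% to 100% of that of the deepest library. Of the 36 libraries, 7 were set aside in an added alternative. Hepatocyte markers summed to 155.7 FPKM in WT ZT8 replicate 3, against a WT median of 5.74, and Schwann cell markers to 469 FPKM in WT ZT12 replicate 1, against 63.8. Adipocyte markers summed to 1834 FPKM in Bmal1hep-/- ZT4 replicate 1 and 1306 FPKM in Bmal1hep-/- ZT20 replicate 3, against a median of 460 FPKM. Bmal1hep-/- ZT8 replicate 2 and ZT12 replicate 2 had a trend with transcript length, and Acta1 was listed at 0 in Bmal1hep-/- ZT16 replicate 3.

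The first question was whether the members' levels follow the time of day. A cosine of 24 h period was fitted to log2(FPKM + 1) with limma in each genotype, and p-values were adjusted over 10837 genes, those whose mean reached 1 FPKM, a filter that all 10 members passed. Igfbp5 and Il15 were rhythmic in WT, 2 of 10 members, where 6.03% of all genes passed. Igfbp5 alone was rhythmic in Bmal1hep-/-, where 5.47% passed, and also alone in both genotypes, where 3.26% passed. In the mean of both genotypes Igfbp5, Fst and Il15 passed, 3 of 10 members against 12.4% of all genes. The median amplitude of the 10 members, the distance from mean to peak on the log2 scale, was 0.17 in WT and 0.16 in Bmal1hep-/-, against medians over all genes of 0.088 and 0.091. A fitted amplitude is above 0 even without a rhythm and grows with a gene's spread, so that these medians do not measure rhythm alone.

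The IGF binding protein Igfbp5 was lowest at ZT4 to ZT12 and highest at ZT20 and ZT0. In WT it was 165, 193 and 146 FPKM at ZT0, 135, 161 and 119 at ZT4, and 125, 119 and 125 at ZT8. Levels were then 105, 104 and 110 FPKM at ZT12, before 157, 161 and 148 at ZT16 and 179, 181 and 133 at ZT20. Every ZT12 library was below every library of the other WT times. The fitted amplitude was 0.30 ± 0.07 (SE) with a peak at 21.8 ± 0.85 h (limma F test, adjusted p = 0.0106). In Bmal1hep-/- it was 138, 154 and 204 FPKM at ZT0, 106, 127 and 87.9 at ZT4, and 126, 96.0 and 142 at ZT8. Levels were then 123, 101 and 124 FPKM at ZT12, before 131, 145 and 164 at ZT16 and 179, 160 and 179 at ZT20. Every ZT20 library was above every library of ZT4, ZT8 and ZT12. The amplitude there was 0.33 ± 0.07 with a peak at 20.1 ± 0.77 h (limma, adjusted p = 0.00424). The highest time mean was 1.58 times the lowest in WT and 1.61 times in Bmal1hep-/-. With the 7 libraries that stood apart left out, the Bmal1hep-/- amplitude was 0.25 and no longer called (limma, adjusted p = 0.193), while the WT call was kept (adjusted p = 0.0405). Most of these 7 libraries were Bmal1hep-/-, so that this genotype lost more of its libraries. Weighting libraries by quality also ended the Bmal1hep-/- call (amplitude 0.21, adjusted p = 0.102), and quantile normalization ended the WT call (adjusted p = 0.0507).

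The cytokine gene Il15 had its high values from ZT12 to ZT20 in WT mice. In WT it was 5.10, 5.60 and 3.52 FPKM at ZT0, 4.09, 3.66 and 4.54 at ZT4, and 4.45, 4.74 and 4.06 at ZT8. Levels were then 5.80, 5.30 and 6.19 FPKM at ZT12, before 6.95, 6.15 and 5.81 at ZT16 and 5.89, 5.16 and 4.99 at ZT20. All 9 libraries of ZT12, ZT16 and ZT20 were above all 6 of ZT4 and ZT8. The amplitude was 0.25 ± 0.06 with a peak at 15.9 ± 0.93 h (limma, adjusted p = 0.0237). This call was lost without WT ZT4 replicate 2 (adjusted p = 0.0704) or without WT ZT16 replicate 1 (adjusted p = 0.0767). In Bmal1hep-/- it was 3.00, 3.65 and 3.22 FPKM at ZT0, 6.10, 3.05 and 4.13 at ZT4, and 4.21, 3.62 and 4.54 at ZT8. Levels were then 3.84, 4.57 and 4.87 FPKM at ZT12, before 4.91, 5.09 and 4.93 at ZT16 and 5.38, 5.02 and 3.72 at ZT20. The library highest in this genotype, ZT4 replicate 1, is the one with adipocyte markers at 1834 FPKM, and the part of these markers in the value was not tested. The Bmal1hep-/- amplitude was 0.15 ± 0.06 with a peak at 14.6 ± 1.57 h and did not pass (limma, adjusted p = 0.346), but without that library it was 0.22 and passed (adjusted p = 0.0259).

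Follistatin RNA, Fst, was highest at ZT0 in WT and at ZT20 in Bmal1hep-/-. In WT it was 3.05, 3.06 and 1.77 FPKM at ZT0, 2.02, 1.67 and 1.92 at ZT4, and 1.29, 1.28 and 1.36 at ZT8. Levels were then 0.844, 1.08 and 1.66 FPKM at ZT12, before 1.70, 2.20 and 1.34 at ZT16 and 1.85, 2.67 and 1.33 at ZT20. In Bmal1hep-/- it was 2.08, 2.45 and 2.15 FPKM at ZT0, 2.74, 1.51 and 0.925 at ZT4, and 1.502, 1.57 and 1.71 at ZT8. Levels were then 1.28, 0.650 and 1.97 FPKM at ZT12, before 0.560, 1.49 and 1.48 at ZT16 and 3.13, 3.22 and 2.08 at ZT20. The WT libraries of ZT0 were above all those of ZT8 and ZT12, and the ZT20 libraries of Bmal1hep-/- were above all those of ZT8, ZT12 and ZT16. Amplitudes were 0.32 in both genotypes, and neither passed alone (limma, adjusted p = 0.0978 for WT, 0.0873 for Bmal1hep-/-). With a pseudocount of 0.1 in place of 1 they were 0.47 in WT and 0.50 in Bmal1hep-/-, again not passing (adjusted p = 0.13 and 0.104). The highest time mean of Fst was 2.20 times the lowest in WT and 2.39 times in Bmal1hep-/-. In the mean of both genotypes the amplitude was 0.32 ± 0.07 with a peak at 23.1 ± 0.80 h, and it passed (limma, adjusted p = 0.00266). The WT test passed with libraries weighted by quality (adjusted p = 0.0178), on the WT libraries alone (0.0212) and without WT ZT20 replicate 3 (0.0495). The Bmal1hep-/- test passed without ZT4 replicate 3 (0.0357) or ZT12 replicate 3 (0.0385), but not on the Bmal1hep-/- libraries alone (0.29). Without the 7 libraries that stood apart the adjusted p was 0.259 in WT and 0.343 in Bmal1hep-/-, where the peak moved to 21.9 h.

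The same mean of genotypes gave Igfbp5 an amplitude of 0.31 ± 0.05 with a peak at 20.9 ± 0.59 h (limma, adjusted p = 3.8e-05), and Il15 one of 0.20 ± 0.04 with a peak at 15.4 ± 0.84 h (adjusted p = 0.00458). The 3 calls in the mean were kept in each of 36 fits that left out 1 library, and without the 7 libraries that stood apart (adjusted p = 0.0419 for Fst, 0.00369 for Igfbp5 and 0.000732 for Il15). With time as a factor, free of a cosine shape, Igfbp5, Fst and Il15 differed between times in the mean (limma, adjusted p = 0.000296, 0.0235 and 0.0394), against 7.71% of all genes. Leaving out 1 library kept that call in 36 of 36 fits for Igfbp5, 33 for Fst and 17 for Il15, and the Il15 call was also lost with no filter on level (adjusted p = 0.0665) or with the length trend removed (0.105). Within WT this fit called Igfbp5 alone (adjusted p = 0.0463, against 3.08% of genes), a call kept in 14 of 36 leave-one-out fits and lost with the replicate block (0.0675), no filter on level (0.0834), quantile normalization (0.255) and without the libraries that stood apart (0.133). Within Bmal1hep-/- it called Igfbp5 alone (adjusted p = 0.0143, against 3.09%), kept in 36 of 36 fits and lost without the libraries that stood apart (0.142). Of the 6 endothelial markers, none at 0 in any library, 3 were rhythmic in WT, 1 in Bmal1hep-/- and 4 in the mean, with sums from 63.1 to 110.5 FPKM among WT libraries and from 75.4 to 112 FPKM among Bmal1hep-/- libraries. Of the 4 tested hepatocyte markers, each at 0 in some libraries, 1 was rhythmic in WT and none in Bmal1hep-/- or in the mean. All 4 had an unadjusted p under 0.05 in WT (limma F test), with a median amplitude of 0.86. No tested gene of the other marker lists was rhythmic in these cosine fits. The part of either list in the members' rhythms was not tested.

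Mstn, the ligand, passed no rhythm test. In WT its time means ran from 36.1 FPKM at ZT20 to 46.3 FPKM at ZT12, and in Bmal1hep-/- from 40.0 FPKM at ZT4 to 51.0 FPKM at ZT16, with overlapping libraries in both. The WT amplitude was 0.16 ± 0.08 (limma, adjusted p = 0.483), and that of Bmal1hep-/- was 0.12 ± 0.08 (adjusted p = 0.677). In the mean of genotypes the amplitude was 0.12 ± 0.06 (adjusted p = 0.349), and the weighting of libraries by their quality raised it to 0.17 (adjusted p = 0.00841). Its receptor Acvr2b had an amplitude of 0.19 ± 0.07 in the mean (adjusted p = 0.128), which passed without WT ZT4 replicate 3 (adjusted p = 0.0483) or Bmal1hep-/- ZT4 replicate 2 (adjusted p = 0.015). Without that second library Acvr2b also passed in Bmal1hep-/- alone (amplitude 0.34, adjusted p = 0.0456), where the value with all libraries was 0.24 ± 0.09 (adjusted p = 0.311). The follistatin-like gene Fstl1 had a WT amplitude of 0.17 ± 0.10 (adjusted p = 0.647), against 0.07 ± 0.10 in Bmal1hep-/- (adjusted p = 0.927).

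In the IGF axis, Igf1 had a WT amplitude of 0.14 ± 0.09 (limma, adjusted p = 0.692), against 0.17 ± 0.09 in Bmal1hep-/- (adjusted p = 0.579). The receptor Igf1r had an amplitude of 0.10 ± 0.03 in the mean with a peak at 8.83 h (adjusted p = 0.0689), and 0.15 ± 0.05 in WT (adjusted p = 0.0879). Its mean test passed without Bmal1hep-/- ZT4 replicate 3 (adjusted p = 0.0289) or Bmal1hep-/- ZT20 replicate 2 (0.025), and in 4 other settings given with the processing alternatives. Of the other myokines, Fndc5 had an amplitude of 0.06 ± 0.05 in the mean (adjusted p = 0.762), and Metrnl one of 0.14 ± 0.05 (adjusted p = 0.19).

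**Figure D2:**
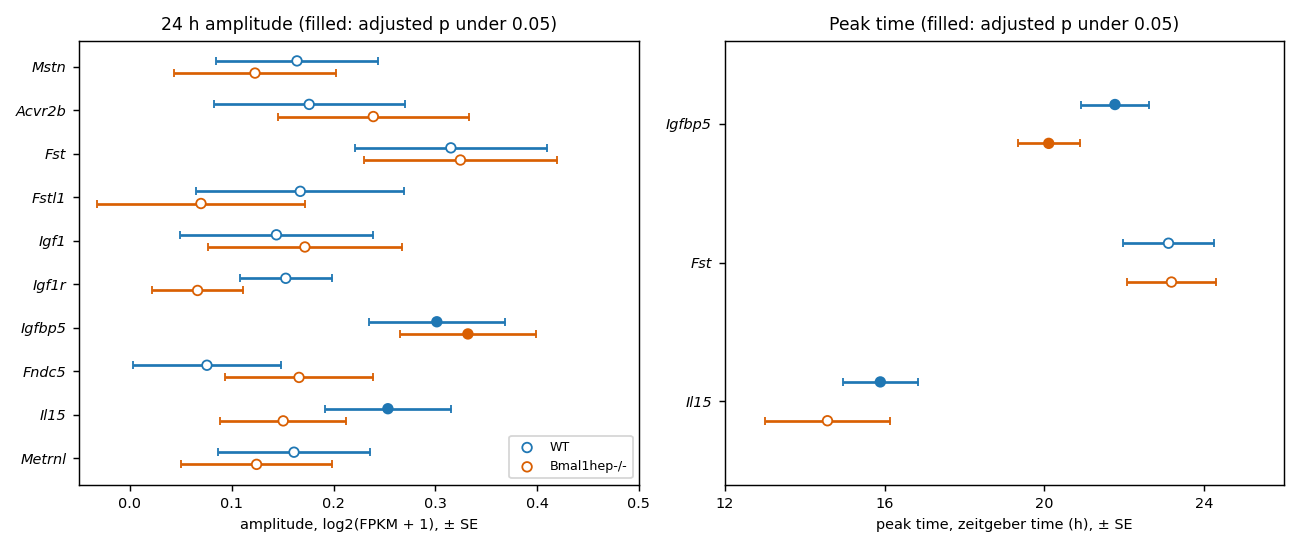
Left, the amplitude on the log2(FPKM + 1) scale (x axis) of each gene in WT (blue) and Bmal1hep-/- (orange). Right, the peak time in hours of Igfbp5, Fst and Il15. Bars are ± SE, with 18 libraries per genotype and a spread estimated for each gene over all 36 libraries. Filled points have an adjusted p under 0.05. On this scale, which understates changes of low genes such as Fst, Igfbp5 and Fst have amplitudes of 0.30 to 0.33 in both genotypes. Il15 peaks at 14.6 to 15.9 h, before the other genes.

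The rhythms of the genotypes were then compared with each other. No member had a difference in rhythm between genotypes (limma F test, 0 of 10 and 0.0% of all genes; the lowest adjusted p among members was 0.913, and 0 members had an unadjusted p under 0.05, against 4.01% of genes). The amplitude in Bmal1hep-/- minus that in WT was 0.03 for Igfbp5 with a 95% interval of ± 0.19, -0.10 ± 0.18 for Il15 and 0.009 ± 0.27 for Fst. The sign of the difference turned in some alternatives for Igfbp5 and Fst, where the difference was small beside its interval. The rhythm of Il15 that passed in WT and not in Bmal1hep-/- is therefore not shown to differ between them.

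The second question was whether deletion of liver Bmal1 shifts the members' level in muscle. Over all times no member passed (limma, 0 of 10 against 0.0% of all genes). At an unadjusted p under 0.05 there were 3 members, against 8.37% of all genes. The log2 difference, Bmal1hep-/- minus WT, was above 0 for 3 members and below 0 for 7, with a median of -0.07 against -0.003 over all genes. In bulk tissue, fewer cells of a type and less RNA per cell cannot be told apart.

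Il15 ran from 3.52 through a median of 5.13 to 6.95 FPKM in the 18 WT libraries, and from 3.00 through 4.38 to 6.10 FPKM in the 18 Bmal1hep-/- libraries. The ranges overlapped, with the Bmal1hep-/- mean lower at 5 of 6 times. The log2 difference was -0.20 ± 0.06 (SE; unadjusted p = 0.00279, limma adjusted p = 0.298). Over the alternatives it lay between -0.24 and -0.17, and its lowest adjusted p was 0.0518, with libraries weighted by quality. Metrnl ran from 1.35 through 2.49 to 3.50 FPKM in WT and from 1.25 through 2.14 to 3.41 FPKM in Bmal1hep-/-, overlapping, with the mean lower at 6 of 6 times. Its log2 difference was -0.20 ± 0.08 (limma, adjusted p = 0.419).

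Igf1 went the other way. It ran from 2.82 through 4.30 to 7.02 FPKM in WT and from 3.21 through 5.48 to 9.15 FPKM in Bmal1hep-/-, overlapping, and its mean was higher at 5 of 6 times. The log2 difference was 0.22 ± 0.09 (unadjusted p = 0.0243, limma adjusted p = 0.489). The highest value came from Bmal1hep-/- ZT20 replicate 3, one of the libraries with high adipocyte markers. That library also had the highest sum of macrophage markers, 133 FPKM against a Bmal1hep-/- median of 50.0. All 5 tested macrophage markers were lower on average in Bmal1hep-/-, and none was called. The sum of the adipocyte list ran from 272 to 526 FPKM among WT libraries and from 331 to 1834 FPKM among Bmal1hep-/- libraries, with all 7 of its genes higher on average in Bmal1hep-/- and none at 0 in any library. The part of either marker list in the result was not tested, and without the 7 libraries that stood apart the Igf1 difference was again 0.22 (limma, adjusted p = 0.502).

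For the remaining members the 95% intervals bound the difference. It was 0.13 ± 0.17 for Mstn, -0.14 ± 0.18 for Acvr2b, -0.006 ± 0.19 for Fst and -0.18 ± 0.22 for Fstl1 on the log2 scale. It was 0.04 ± 0.09 for Igf1r, -0.06 ± 0.13 for Igfbp5 and -0.08 ± 0.16 for Fndc5. Fst had 3 times above and 3 below 0, and the sign of its mean turned with quantile normalization. The sum of the fibroblast markers ran from 235 to 575 FPKM among WT libraries (median 444) and from 199.97 to 625 FPKM among Bmal1hep-/- libraries (median 365), with all 7 lower on average in Bmal1hep-/-, none called and none at 0 in any library. Tendon markers moved more: their sum ran from 51.3 to 224 FPKM among WT libraries (median 116) and from 32.9 to 181 FPKM among Bmal1hep-/- libraries (median 59.9). Of the 5 tendon markers tested out of 6, 4 were lower in Bmal1hep-/-, with a median log2 difference of -0.93, 4 at an unadjusted p under 0.05 and none called; Mkx was listed at 0 in 1 library. Hepatocyte markers had a median sum of 5.74 FPKM in WT (0.0576 to 155.7) and 0.871 FPKM in Bmal1hep-/- (0.129 to 14.7). Of these 7 markers 4 were tested, all lower in Bmal1hep-/-, with a median log2 difference of -0.66, 3 at an unadjusted p under 0.05 and none called, and all 7 were listed at 0 in some libraries. The part of these markers in the members' genotype differences was not tested.

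**Figure D3:**
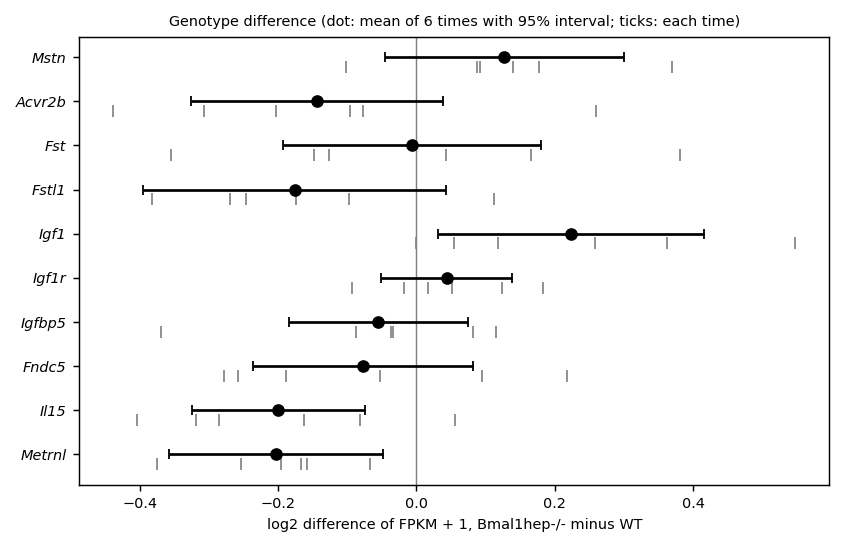
Log2 difference of FPKM + 1, Bmal1hep-/- minus WT (x axis), for each gene; the dot is the mean over 6 times with its 95% interval and ticks are single times. Metrnl, Il15 and Igf1 have intervals that leave out 0, and none passed after adjustment over all genes.

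At single times 0 of 60 differences passed (limma, 0.0% of genes at each time; the lowest adjusted p was 0.372). They ran from -0.44 to 0.55, with 36 below and 24 above 0, and 4 had an unadjusted p under 0.05, against 6.10% of all such tests. These were Il15 at ZT0 (-0.40) and ZT12 (-0.32), Igfbp5 at ZT4 (-0.37) and Igf1 at ZT20 (0.55). The share of all genes with such a p was 2.2%, 9.06%, 3.08%, 7.25%, 2.45% and 12.6% in order of time from ZT0 to ZT20. Igf1 at ZT20 was 4.25, 6.40 and 3.46 FPKM in WT and 5.72, 6.95 and 9.15 FPKM in Bmal1hep-/-, overlapping, and without the last of these the difference was 0.39. Il15 at ZT12 was lower in every Bmal1hep-/- library than in any WT library, as 4.41% of genes were, and so it was at ZT16, where Acvr2b did the same, against 3.96% of genes. Acvr2b at ZT16 was 3.87, 3.82 and 2.42 FPKM in WT and 2.02, 2.34 and 2.19 FPKM in Bmal1hep-/- (difference -0.44, unadjusted p = 0.0533). Fstl1 and Metrnl were fully lower at ZT0, against 5.79% of genes, and Fst fully higher at ZT8, against 2.41%. No member was fully higher at ZT0 (6.55% of genes were), ZT4 (6.98%), ZT12 (4.39%), ZT16 (5.48%) or ZT20 (4.63%), and none fully lower at ZT4 (8.37%), ZT8 (4.13%) or ZT20 (6.52%). No member's genotype difference varied with time (limma F test, 0 of 10 against 0.0% of genes; lowest adjusted p = 0.902, with 0 members at an unadjusted p under 0.05, against 4.64% of genes).

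The members were also compared with each other across libraries, over 45 pairs with permutation tests adjusted over the pairs. Fst and Igfbp5 varied together, with Pearson's r = 0.62 over 36 libraries (adjusted permutation p = 0.00157) and Spearman's rho = 0.64 (adjusted permutation p = 0.0009). Their r was 0.77 within WT and 0.52 within Bmal1hep-/-, where it did not pass (adjusted permutation p = 0.351). On the residuals from the group means their r was 0.44 (adjusted permutation p = 0.0436). It was 0.62 without the 2 libraries farthest from the median of Fst. Fst and Fstl1, the antagonist and its relative in sequence, had r = 0.62 (adjusted permutation p = 0.00157) and rho = 0.52 (adjusted permutation p = 0.027). On the residuals their r was 0.74 (adjusted permutation p = 0.00045). Within genotypes their r was 0.57 in WT and 0.70 in Bmal1hep-/- (adjusted permutation p = 0.146 and 0.0603), and 0.47 without the 2 farthest libraries. Acvr2b and Fstl1 had r = 0.48 (adjusted permutation p = 0.0474) and rho = 0.41 (adjusted permutation p = 0.117), so that this pair passed by one measure only. Its r kept the call in 19 of 36 leave-one-out sets and lost it with median-of-ratios rescaling (adjusted permutation p = 0.0651), quantile normalization (0.132), within either genotype and without the libraries that stood apart (0.11). The pairs share library depth and cell makeup. Libraries were permuted across all groups, so that a shared time of day also enters these p-values, except for those on the residuals. Residuals were shuffled as 36 free values, although the 12 fitted group means leave 24 degrees of freedom. The p-values on residuals are therefore too low, and a call that rests on them is not secure. Fibroblast markers summed to 562 FPKM in the library with the highest Fstl1, WT ZT0 replicate 1, and to 199.97 FPKM in that with the lowest, Bmal1hep-/- ZT12 replicate 2, and their part in these correlations was not tested.

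**Figure D4:**
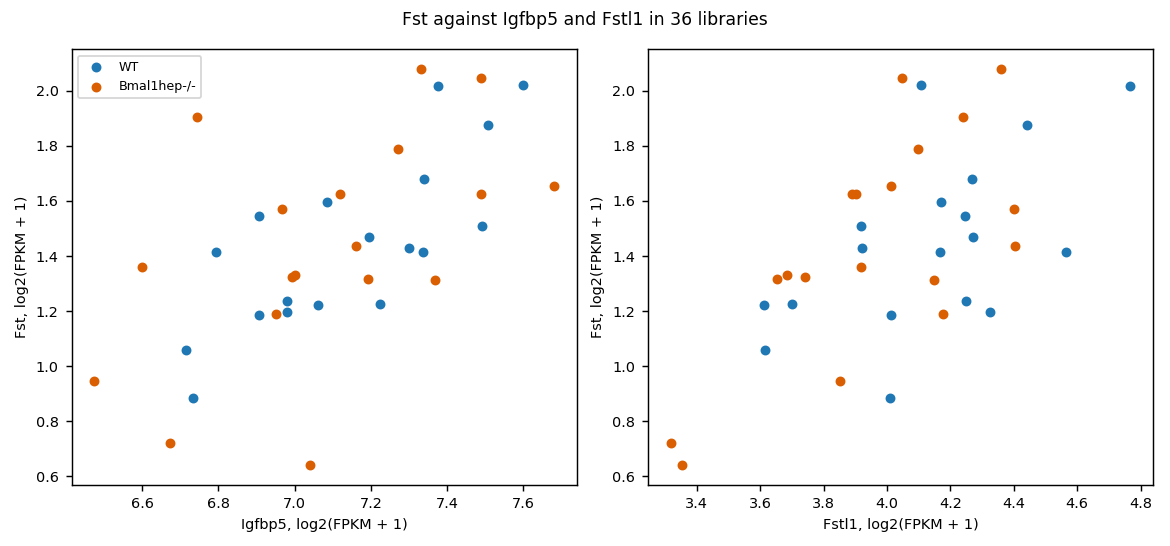
Fst on the log2(FPKM + 1) scale (y axes) against Igfbp5 (left) and Fstl1 (right), 1 point per library, WT blue and Bmal1hep-/- orange. Both pairs have r = 0.62 over the 36 libraries.

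Over the 12 group means, as a description of 12 points that share libraries, the genes most like Igfbp5 were Zfp142 (r = 0.951), Dnaja1 (0.947), which encodes a heat shock co-chaperone, and Zfp568 (0.934). Those most like Fst were Hps5 (0.948), Eya1 (0.946), a transcriptional coactivator in muscle, and Morc4 (0.932). Those most like Il15 were Cd9 (0.906), Fmo2 (0.895) and Adk (0.841), the kinase that phosphorylates adenosine.

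Other genes of the members' pathways were counted in the same rhythm tests, which passed 6.03% of all genes in WT, 5.47% in Bmal1hep-/- and 12.4% in the mean. In the myostatin and activin list, 18 of 24 genes were tested. Acvr1b, the type I receptor that pairs with ACVR2B, peaked at 13.4 h in WT (amplitude 0.41) and 14.6 h in Bmal1hep-/- (0.40). Smad3, which carries the signal to the nucleus, peaked at 23.7 h in WT (0.24) and 23.1 h in Bmal1hep-/- (0.27). The third call in WT was the inhibitory Smad7 (0.37, peak 20.3 h), and in Bmal1hep-/- the receptor Tgfbr1 (0.27, peak 21.8 h), so that 3 of 18 passed in each genotype. In the mean 7 of 18 passed, where Furin, Tgfb2 and Ltbp3 joined them. The median amplitude over the 18 tested genes was 0.10 in WT and in Bmal1hep-/-, against 0.088 and 0.091 over all genes.

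In the IGF and growth list, 27 of 32 genes were tested and 3 of 27 passed in each genotype. Pik3r1, the regulatory subunit of PI3-kinase, peaked at 17.4 h in WT (amplitude 0.44) and 18.4 h in Bmal1hep-/- (0.52), and Stat5b, a transducer of growth hormone, at 5.53 h (0.19) and 3.34 h (0.22). Foxo1, which drives atrophy genes, passed in WT (0.28, peak 15.9 h), and the catalytic subunit Pik3ca in Bmal1hep-/- (0.22, peak 0.93 h). In the mean 7 of 27 passed, with Irs1, Irs2 and Grb10 added. In the list of other myokines and receptors, 15 of 25 genes were tested, and Cxcl12, a chemokine, passed in WT (0.33, peak 2.08 h). In the mean 2 of 15 passed, Cxcl12 and Il15ra, the receptor that presents IL15 (amplitude 0.16, peak 19.04 h). In Bmal1hep-/- none of this list passed at an adjusted p under 0.05, and 3 had an unadjusted p under 0.05. These were Cxcl12 (0.20, limma adjusted p = 0.0741), Il15ra (0.17, 0.138) and Fgf2 (0.35, 0.236).

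No gene of the 3 lists differed between genotypes over all times (limma). At an unadjusted p under 0.05 there were 2 of 18, 1 of 27 and 0 of 15 genes in the myostatin, IGF and other myokine lists, against 8.37% of all genes. The lowest p-values in the myostatin and activin list belonged to Tgfb1 (log2 difference 0.25), Gdf11 (0.18) and Smad3 (0.11). Those of the IGF list belonged to Igfbp6 (-0.30), Igf2 (0.12) and Socs2 (0.18), and those of the other myokines to Il2rg (0.33), Il6ra (-0.12) and Itgb5 (0.04).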

How the data were processed

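Values were deposited by the authors as FPKM per gene symbol in 1 table of 24319 symbols and 36 libraries. Per the submitters' processing notes, FastQC 0.11.8 and STAR were used, with the builds mm10 and GRCm39. The tool behind FPKM, its annotation, strand handling and scaling between libraries are unstated in the labels used, and raw read totals are unknown. Per the labels' protocols, libraries were made from poly-T captured RNA with random hexamers.

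From the deposited FPKM, log2(FPKM + 1) was computed for 10837 genes, those whose mean reached 1 FPKM, and fold changes on this scale understate changes of low genes. Genotypes were compared with limma 3.58.1 (R 4.3.3; eBayes with trend and robust) on 12 group means (24 residual degrees of freedom). Rhythms used a cosine and a sine of fixed 24 h period per genotype (30 residual degrees of freedom). Benjamini-Hochberg adjustment ran over all 10837 genes, and an adjusted p under 0.05 was a call. Correlations used 100000 two-sided permutations. Amplitude and peak SEs came from the delta method. The fits were checked on simulated data. Alternatives were another pseudocount (0.1), array weights, a replicate block, quantile normalization, rescaling by median of ratios, no filter on level or one at 5 FPKM, time as a factor, fits on fewer libraries, and leaving out each library. Leaving out the 7 libraries that stood apart and removing the trend with transcript length (GENCODE M21 lengths) were chosen after seeing the data. A library stood apart where hepatocyte, adipocyte or Schwann cell markers deviated on average by over 2 on the log2 scale, where Spearman's rho of deviation with transcript length was under -0.4, or where Acta1 was listed at 0.

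The members and lists were chosen with earlier results of these data known. All 10 members are named, with the pathway genes that passed a test, or otherwise the 3 of smallest p in a list for the genotype difference over all times. The genes most like a member are the 3 of highest r, predicted genes left out.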

Additional observations from a re-analysis of the deposited data

How the results depend on the processing

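No genotype difference, no dependence of it on time and no difference in rhythm was called for a member under any alternative run. The count rhythmic in WT, 2, was 1 with a filter at 5 FPKM, where Igfbp5 was the only one of the 3 rhythmic members tested, with quantile normalization (Igfbp5 lost, adjusted p = 0.0507), with the length trend removed (Il15 lost, 0.0653) and with time as a factor, 3 with array weights or the WT libraries alone, both adding Fst, and 1 to 3 on leaving out each library. The count in Bmal1hep-/-, 1, was 0 with array weights (Igfbp5, 0.102) and without the libraries that stood apart, and 1 to 2 on leaving out each library. The count in the mean, 3, was 1 with the 5 FPKM filter, which tests 4 members, and 5 with array weights, which added Mstn and Igf1r. Igf1r also passed with median-of-ratios rescaling (0.0467), quantile normalization (0.0197) and the length trend removed (0.0174). Calls of pairs, 3, became 8 on residuals from group means, 9 with group means and a replicate block, 0 within Bmal1hep-/-, and 2 with median-of-ratios rescaling or quantile normalization (2 to 4 on leaving out each library). Within WT alone there were also 2, Fst with Igfbp5 and 1 negative pair that was not among the 3. The counts of 8 and 9 rest on p-values that are too low, since the permutation ignored the fitted means. The Fst difference over all times turned to 0.0081 with quantile normalization and ran from -0.0491 to 0.0309 over left-out libraries. The Fst amplitude difference turned to -0.00724 with quantile normalization and -0.0488 with array weights (-0.0421 to 0.0684 over left-out libraries). That of Igfbp5 turned to -0.12 with array weights and -0.0469 without the libraries that stood apart (-0.0117 to 0.0848). The cause was not tested, beyond the genes a filter removes. The replicate block changed no call of the cosine and genotype fits, and with time as a factor ended that of Igfbp5 in WT (0.0675). Same-numbered libraries did not deviate together (mean r = 0.005 over 198 pairs, from -0.48 to 0.68), and 13 of 36 correlated best with their own number. Of 2692 alternative values for 60 results, 2619 counted as unchanged. For differences and correlations this meant the same sign and side of the threshold, and for amplitudes the same side. For peak times it meant a shift smaller than the SE, whether or not the call was kept. Most of the differences and amplitudes were not called in the main fit, and most alternatives left out 1 library. The count of unchanged values therefore says little about the results that were called. With 3 libraries a group, a single-time difference had a median 95% half-width of 0.41.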
